A study of Rattus norvegicus with 9 samples.

Results

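The expression of 9 genes of fatty acid activation and mitochondrial beta-oxidation was followed in the lumbar spinal cord of rats with a peripheral nerve injury. They are Acsbg1, Acsl3, Acsl6, Cpt1a, Cpt2, Acadvl, Hadha, Hadhb and Acaa2. All 9 were found by gene name among the 34890 loci of an expression table, of which 32850 have a name, and each name stands for 1 locus. The genes were selected on their measured values in these same samples as well as on their function. Their differences between the groups are therefore described by levels, fold changes and errors. Counts of the 9 past a threshold of the fit over all loci are given beside the same count for all loci, as a description. Tests are given for the other genes of the pathway, whose list was written from general knowledge but with earlier results of these data known.

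RNA was sequenced from the L3-L6 spinal cord on the injured side of wild-type male Sprague Dawley rats, with 3 samples in each of 3 groups. The JA group had a sham operation and received saline by mouth. The SNI group had a spared nerve injury, in which branches of the sciatic nerve are tied and cut while another is left whole, and received saline. The PLM group had the same injury and received the middle dose of a combination of paeoniflorin and liquiritin, a pair of plant glycosides, and the study's methods give 21 days of gastric infusion. The labels give paeoniflorin as 20.65 mg/ml in all PLM samples, and liquiritin as 3.98, 3.99 and 3.100 mg/ml in PLM replicates 1, 2 and 3, whereas the study's methods give the group a single liquiritin dose, that of replicate 1. Whether the doses differed is thus not known. The libraries used here hold no rats given 1 drug alone and no uninjured rats given the drugs, so the effect of each drug, and of the drugs without injury, cannot be told apart here. The age of the rats was not given in the sources used here.

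Fatty acids must be joined to coenzyme A by an acyl-CoA synthetase before a cell can store, build with or burn them. Long-chain acyl-CoA enters mitochondria through the carnitine shuttle, in which CPT1 on the outer membrane makes acylcarnitine and CPT2 on the inner membrane turns it back into acyl-CoA. Beta-oxidation then shortens the chain in repeated rounds of dehydrogenation, hydration, a further dehydrogenation and thiolysis, and each round releases acetyl-CoA. Nervous tissue relies mainly on glucose, and within it the capacity for fatty acid oxidation is generally ascribed to astrocytes more than to neurons. The SNI and JA groups were set side by side for the effect of the injury, and PLM and SNI for the effect of the drugs in injured rats.

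Levels are in TPM, a transcript abundance scaled for transcript length and to the same total in every sample, so levels can be compared between genes. TPM keeps no read depth, so the counting error of single values is unknown. Fold changes are differences of mean log2(TPM + 1), given with their SE from limma, and they understate changes of genes with low TPM. The samples differed as wholes. Over all 15474 loci tested in PLM and SNI, the median log2 fold change was -0.21, and the 13 protein genes of the mitochondrial genome took 31.3% to 32.8% of the TPM in PLM samples, 23.7% to 26.1% in SNI samples and 25.3% to 32.8% in JA samples. Fold changes are therefore also given after each sample was centred on its median over the loci tested. After centring, the median of all loci in PLM versus SNI was 0.04. JA replicate 3 stood apart from JA replicates 1 and 2, with the lowest summed level of 12 astrocyte markers in its group (3200 TPM against 4377 and 4832 TPM) and the highest summed level of 4 Schwann cell markers of all 9 samples (6286 TPM). Schwann cells belong to the peripheral nerve and its roots.

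The acyl-CoA synthetases Acsbg1 and Acsl6 had the largest differences of the 9 genes between the PLM and SNI groups. Acsbg1 encodes the bubblegum family synthetase of long and very long chains, which in brain is found mainly in astrocytes. In replicates 1 to 3 of JA it stood at 165.23, 127.78 and 58.18 TPM. The SNI values were 166.95, 152.98 and 129.84 TPM, and those of PLM 74.98, 60.37 and 49.45 TPM. The PLM samples all lay under the lowest SNI sample. JA replicate 3 lay within the PLM range, and the other two JA samples lay within or just below the SNI range. The group means were 117.1 ± 54.3 TPM in JA, 149.9 ± 18.7 TPM for SNI and 61.6 ± 12.8 TPM for PLM (SD, n = 3 samples each). Compared with SNI, PLM had a log2 fold change of -1.28 ± 0.16 (SE) as deposited and -1.03 ± 0.18 after centring.

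Acsl6 encodes a brain-enriched synthetase known for activating docosahexaenoic acid, the main omega-3 fatty acid of neural membranes. Its values were 66.48, 44.33 and 31.19 TPM in JA, 75.76, 70.02 and 61.58 TPM in SNI, and 31.70, 33.73 and 30.30 TPM in PLM. The 3 PLM samples lay close together and well below SNI, whereas the JA samples spanned the distance from the PLM level to the SNI level. Means were 47.3 ± 17.8, 69.1 ± 7.13 and 31.9 ± 1.72 TPM in JA, SNI and PLM (SD, n = 3 samples each). Its log2 fold change between PLM and SNI was -1.09 ± 0.091 (SE) as deposited and -0.84 ± 0.088 after centring. Acsl3, a synthetase of the endoplasmic reticulum and of growing lipid droplets, moved over a narrower range. It was at 93.80, 81.42 and 78.64 TPM in JA, 107.82, 113.54 and 96.70 TPM in SNI, and 71.07, 69.43 and 76.24 TPM in PLM. No value of one group overlapped another, with SNI highest and PLM lowest. In PLM versus SNI it had a log2 fold change of -0.55 ± 0.078 (SE), and -0.30 ± 0.072 after centring.

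**Figure D1:**
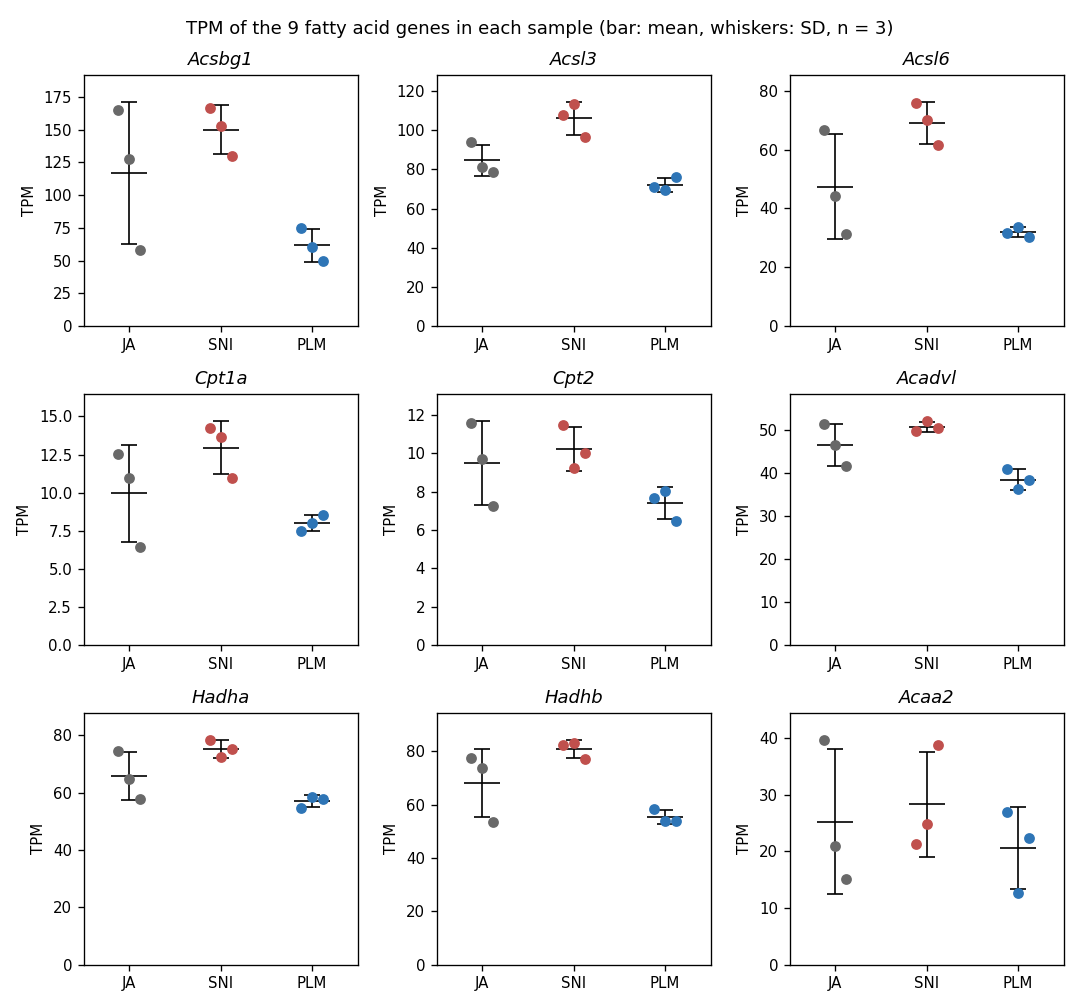
TPM of each of the 9 genes in the JA, SNI and PLM groups, with 1 point per sample, the horizontal bar at the group mean and whiskers of 1 SD (n = 3). For 8 genes all PLM points lie below all SNI points, and Acaa2 is the exception; Acsbg1 runs from 49.45 TPM in PLM to 166.95 TPM in SNI.

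Because the 3 synthetases differed by unequal amounts, the sequences before their start sites are shown for comparison. The 250 bases upstream of each RefSeq start in the rat assembly GRCr8 are printed 5′ to 3′ on the gene's strand, for Acsbg1 at chr8:63943279-63943528 (minus strand), Acsl6 at chr10:38951911-38952160 (plus strand) and Acsl3 at chr9:87563351-87563600 (plus strand). Capitals mark GGGCGG on either strand, the core of a GC box.
Acsbg1: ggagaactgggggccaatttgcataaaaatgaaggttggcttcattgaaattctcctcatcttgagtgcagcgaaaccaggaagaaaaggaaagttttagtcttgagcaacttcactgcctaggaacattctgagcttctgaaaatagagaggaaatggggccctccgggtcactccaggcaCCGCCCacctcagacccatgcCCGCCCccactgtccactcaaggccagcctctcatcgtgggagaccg
Acsl6: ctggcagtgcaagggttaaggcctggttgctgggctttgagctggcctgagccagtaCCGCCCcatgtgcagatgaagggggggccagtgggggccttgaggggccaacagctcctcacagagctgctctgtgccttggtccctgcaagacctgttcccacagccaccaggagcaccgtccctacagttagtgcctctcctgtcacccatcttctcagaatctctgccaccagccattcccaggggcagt
Acsl3: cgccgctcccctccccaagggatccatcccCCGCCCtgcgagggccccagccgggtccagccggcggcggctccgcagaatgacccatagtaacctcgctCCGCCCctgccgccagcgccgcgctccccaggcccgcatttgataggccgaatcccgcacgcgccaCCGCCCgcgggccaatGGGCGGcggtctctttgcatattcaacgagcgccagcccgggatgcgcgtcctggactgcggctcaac
The upstream stretch of Acsl3 is 72.4% G and C with 31 CG dinucleotides, and that of Acsl6 is 61.6% G and C with 2. Acsbg1 has 52.4% G and C and 6 CG, near the medians of 51.2% and 5 CG over 33469 RefSeq promoters. Among those promoters, taken from 250 bases before to 50 bases after the start, 33.1% hold GGGCGG on either strand, and 6 of the 8 members with an entry do. Acaa2 was the gene without an entry. CACGTG was in 6.42% of all promoters and TATAAA in 14.2%, and neither was in any of the 8. These matches describe the letters of a window and were not tied to the measured levels.

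Within each sample, the balance of the synthetases also differed between PLM and SNI. The ratio of Acsbg1 to Acsl3 does not depend on how a sample was scaled. In JA replicates 1 to 3 it was 1.76, 1.57 and 0.740. The SNI samples had 1.55, 1.35 and 1.34, and the PLM samples had 1.06, 0.870 and 0.649. All 3 PLM ratios were below all 3 SNI ratios, and JA replicate 3 again stood with PLM. The ratio of Acsl6 to Acsl3 was 0.617 to 0.703 in SNI and 0.397 to 0.486 in PLM, with no overlap. Among Acsbg1, Acsbg2 and Acsl1, Acsl3, Acsl4, Acsl5 and Acsl6 together, the summed level came to 383, 311 and 226 TPM in JA, 416, 404 and 347 TPM in SNI, and 230, 220 and 220 TPM in PLM. Acsbg1 made up 38.5% ± 1.46 of that sum in SNI, 27.5% ± 5.06 in PLM and 36.7% ± 9.51 in JA (SD, n = 3 samples each). In the same samples the share of Acsl5 was 6.46% ± 0.488 in SNI and 10.4% ± 1.47 in PLM, and that of Acsl1 was 8.07% ± 0.543 in SNI and 12.4% ± 1.46 in PLM.

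**Figure D2:**
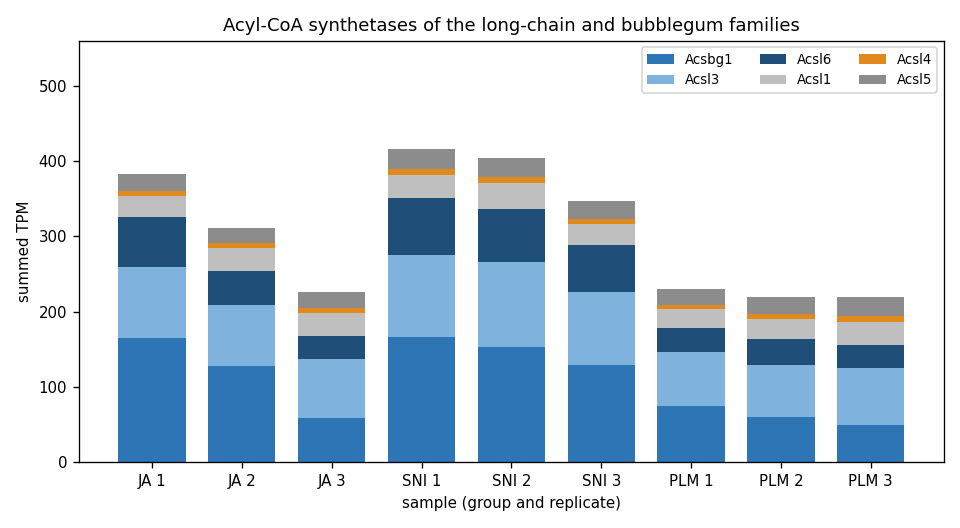
Stacked bars of the TPM of 6 acyl-CoA synthetases in each of the 9 samples, with 1 colour per gene; Acsbg2, listed at 0 in most samples, is too low to show. The sums lie between 347 and 416 TPM in SNI and between 220 and 230 TPM in PLM, and most of the difference is in Acsbg1, Acsl6 and Acsl3.

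The carnitine shuttle genes were the lowest of the 9. Cpt1a, the outer membrane transferase whose activity is held back by malonyl-CoA, was at 12.51, 10.98 and 6.42 TPM in JA, 14.22, 13.68 and 10.96 TPM in SNI, and 7.49, 8.02 and 8.52 TPM in PLM. PLM lay below SNI in every sample, and the JA samples reached both above and below the PLM range. Between PLM and SNI its log2 fold change was -0.62 ± 0.11 (SE) as deposited and -0.38 ± 0.094 after centring. Cpt1c, the brain form, was of similar abundance, with a ratio of Cpt1a to Cpt1c between 0.629 and 1.26 over the 9 samples. Cpt1b, the muscle form, averaged 0.727 TPM. Cpt2, the inner membrane transferase, was at 11.58, 9.69 and 7.23 TPM in JA, 11.46, 9.21 and 9.99 TPM in SNI, and 7.67, 8.05 and 6.48 TPM in PLM. The SNI and PLM samples did not overlap as deposited, with 9.21 TPM the lowest in SNI and 8.05 TPM the highest in PLM, and they overlapped after centring. Its log2 fold change was -0.42 ± 0.11 (SE), and -0.17 ± 0.12 after centring, where the SE covers most of the difference. That centred value was -0.06 without PLM replicate 3 and -0.11 without SNI replicate 1.

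Acadvl, Hadha and Hadhb form the entry to the beta-oxidation of long chains. Acadvl encodes the very-long-chain acyl-CoA dehydrogenase of the inner membrane, which makes the first double bond. It was at 51.37, 46.50 and 41.59 TPM in JA, 49.57, 52.02 and 50.28 TPM in SNI, and 40.85, 36.16 and 38.25 TPM in PLM. The PLM samples were below all SNI and all JA samples as deposited. In PLM versus SNI its log2 fold change was -0.39 ± 0.066 (SE), and -0.14 ± 0.083 after centring, where the groups overlapped and the value was -0.22 without PLM replicate 1. Its upstream bases are shown because it was the one member with AGGTCA, the half-site bound by PPAR and other nuclear receptors, before its start. They lie at chr10:55236706-55236955 on the minus strand of GRCr8, with AGGTCA in capitals (matches on either strand were searched).
Acadvl: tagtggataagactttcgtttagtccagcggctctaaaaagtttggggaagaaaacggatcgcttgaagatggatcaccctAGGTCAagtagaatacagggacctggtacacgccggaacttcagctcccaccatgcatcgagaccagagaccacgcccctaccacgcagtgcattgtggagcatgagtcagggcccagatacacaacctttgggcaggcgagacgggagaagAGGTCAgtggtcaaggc
The copies begin at -169 and -17 from the start site. AGGTCA on either strand was in 16.2% of the 33469 promoters, and in 2 of the 8 members, Acadvl and Hadhb, the latter after its start. A pair of AGGTCA copies with 1 base between them was in 0.0538% of promoters and in none of the 8.

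Hadha and Hadhb encode the alpha and beta subunits of the mitochondrial trifunctional protein, which carries out hydration, the second dehydrogenation and thiolysis of long chains. Hadha was at 74.51, 64.89 and 57.69 TPM in JA, 78.31, 72.26 and 75.12 TPM in SNI, and 54.53, 58.61 and 57.74 TPM in PLM. Hadhb was at 77.33, 73.67 and 53.62 TPM in JA, 82.40, 83.06 and 76.95 TPM in SNI, and 58.25, 53.75 and 53.85 TPM in PLM. For both subunits the SNI and PLM samples did not overlap, as deposited or after centring, and JA replicate 3 was at or just below the PLM range. In PLM versus SNI the log2 fold change was -0.40 ± 0.060 (SE) for Hadha and -0.54 ± 0.063 for Hadhb as deposited, and -0.15 ± 0.054 and -0.29 ± 0.077 after centring. The 2 subunits stayed near equal abundance, with a ratio of Hadha to Hadhb between 0.870 and 1.09 over the 9 samples.

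The 2 subunit genes lie head to head on chromosome 6, Hadhb on the minus and Hadha on the plus strand. The 243 bases between the annotated genes, at chr6:31907558-31907800 in GRCr8, are shown on the plus strand as the stretch the pair shares. For the motif matches Hadhb was read from another start, with its upstream window at chr6:31907501-31907750. That window holds a GGGCGG at -31 that lies outside the stretch shown. Capitals mark GGGCGG on either strand.
Hadhb-Hadha: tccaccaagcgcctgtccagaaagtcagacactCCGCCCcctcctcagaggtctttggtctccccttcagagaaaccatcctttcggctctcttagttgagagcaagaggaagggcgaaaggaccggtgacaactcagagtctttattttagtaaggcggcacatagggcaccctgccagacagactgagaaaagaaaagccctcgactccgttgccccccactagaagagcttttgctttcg
The stretch holds 9 CG dinucleotides and 53.5% G and C.

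Acaa2, the mitochondrial thiolase of the last step for medium chains, was the exception among the 9. It was at 39.68, 20.98 and 15.07 TPM in JA, 21.23, 24.81 and 38.88 TPM in SNI, and 26.92, 12.72 and 22.38 TPM in PLM. All 3 groups overlapped. Its coefficient of variation was 50.9% among JA samples, 33.0% among SNI samples and 35.1% among PLM samples. With SNI as the reference, PLM had a log2 fold change of -0.45 ± 0.32 (SE), of a size like those of Hadha and Cpt2 but with a larger error. After centring it was -0.20 ± 0.34. Leaving out 1 sample at a time moved it between -0.66 without PLM replicate 1 and -0.15 without PLM replicate 2 as deposited, and after centring to 0.10 without PLM replicate 2 and 0.06 without SNI replicate 3, so that its sign rested on single samples.

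In the SNI samples the order of levels from high to low was Acsbg1, Acsl3, Hadhb, Hadha, Acsl6, Acadvl, Acaa2, Cpt1a and Cpt2. Neighbours in that order overlapped between samples for Hadhb and Hadha, for Hadha and Acsl6, and for Cpt1a and Cpt2. In the PLM samples the order was Acsl3, Acsbg1, Hadha, Hadhb, Acadvl, Acsl6, Acaa2, Cpt1a and Cpt2. There Acsl3 overlapped with Acsbg1, Acsbg1 with Hadha, Hadha with Hadhb, and Cpt1a with Cpt2. Acsl6 moved from above every Acadvl sample in SNI (61.58 TPM against at most 52.02 TPM) to below every Acadvl sample in PLM (at most 33.73 TPM against 36.16 TPM). In JA, Acsl6 and Acadvl overlapped, as did Acsbg1 and Acsl3.

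Set against all loci, the share of the 9 genes past each threshold depended on the scaling. A gene was counted as called at a Benjamini-Hochberg adjusted p under 0.05 in limma's test over all loci. As deposited, 7 of the 9 were called with PLM below SNI, all but Cpt2 and Acaa2, where 13.6% of all loci were called lower. The count was 2 without SNI replicate 1, 3 without PLM replicate 1 or PLM replicate 2, and 2 in a fit of all 9 samples. After centring, 1 of the 9 was called lower, Acsl6, against 0.685% of loci. That count was 1 without PLM replicate 1 and 0 without any other single sample. By the study's own rule of an unadjusted p under 0.05 and a log2 fold change past 1, the count was 2 as deposited, Acsbg1 and Acsl6, against 1.42% of loci, and 1 after centring, Acsbg1, against 0.659%. The groups did not overlap, with PLM lower, for 8 genes as deposited against 41.9% of loci, and for 6 genes after centring against 9.73%. The median log2 fold change of the 9 was -0.54 as deposited and -0.29 after centring, against -0.21 and 0.04 for all loci. As the genes were selected on these values, nothing further is read from these counts.

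**Figure D3:**
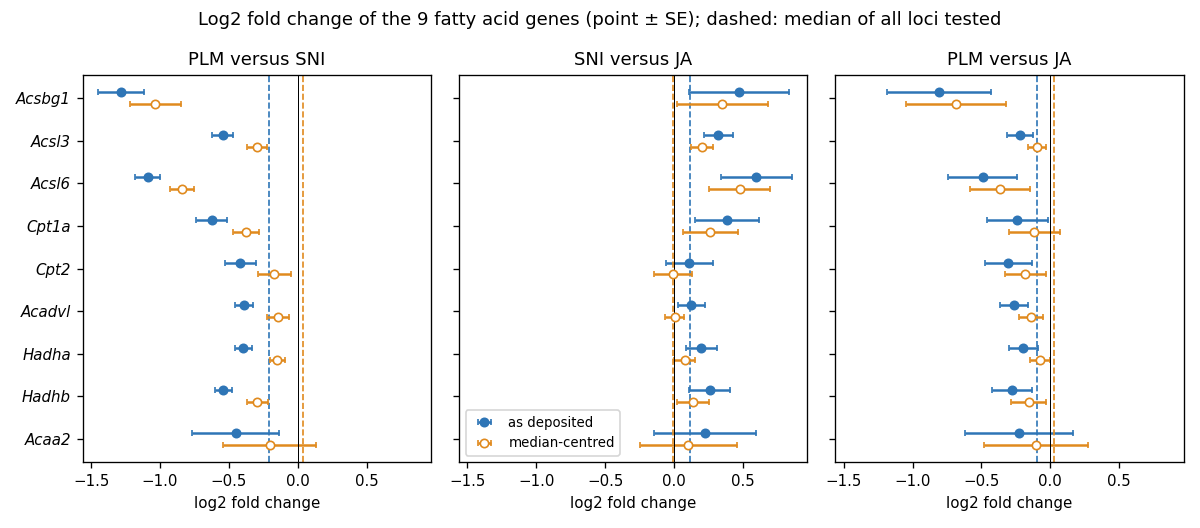
Log2 fold change with its SE (horizontal axis) for each of the 9 genes in the 3 comparisons, as deposited (filled) and after median centring (open), with dashed lines at the median of all loci tested. In PLM versus SNI all 9 points lie left of 0 on both scales, from -1.28 for Acsbg1 to -0.39 for Acadvl as deposited, and the error bar of Acaa2 after centring crosses 0.

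For 8 of the 9 genes the SNI and JA samples overlapped. As deposited all 9 fold changes were above 0, from 0.11 ± 0.17 (SE) for Cpt2 to 0.60 ± 0.26 for Acsl6, with a median of 0.26 against 0.12 for all loci. After centring the median was 0.14 against -0.01 for all loci, and Cpt2 was at -0.01 ± 0.14. None of the 9 was called by limma on either scale, where 0.00% of the loci tested were called higher on both, and 1 of the 9 had an unadjusted p under 0.05 on either scale, against 1104 of 15557 loci as deposited and 751 after centring. Acsl3 was the one gene whose SNI and JA samples did not overlap, on both scales, against 12.1% of loci as deposited and 4.00% after centring. JA replicate 3 weighed heavily on these values. Without it the log2 fold change of Acsbg1 in SNI versus JA was 0.04 in place of 0.47, that of Acsl6 0.34 in place of 0.60, that of Cpt1a 0.13 in place of 0.38 and that of Acsl3 0.27 in place of 0.32, while Cpt2 and Acaa2 were at -0.05 and -0.07. Acadvl, Hadha and Hadhb were then at 0.05, 0.11 and 0.10, in place of 0.13, 0.20 and 0.26, and after centring Acsbg1 and Acadvl were below 0 (-0.05 and -0.03). Without JA replicate 1 the values went the other way, to 0.78 for Acsbg1, 0.87 for Acsl6, 0.56 for Cpt1a, 0.25 for Cpt2 and 0.60 for Acaa2, and Acaa2 was at -0.02 without SNI replicate 3.

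Between PLM and JA the fold changes of all 9 were below 0, from -0.20 ± 0.11 (SE) for Hadha to -0.81 ± 0.38 for Acsbg1 as deposited. Their median was -0.27 against -0.10 for all loci, and -0.14 against 0.03 after centring. None was called by limma on either scale, against 0.0130% of loci called lower on each, and 2 had an unadjusted p under 0.05 as deposited and 0 after centring, against 1809 and 1532 of 15349 loci. The groups did not overlap for 2 genes as deposited, Acsl3 and Acadvl, against 15.7% of loci, and for Acsl3 alone after centring, against 6.93%. Without JA replicate 3 the log2 fold change of Acsbg1 was -1.25 in place of -0.81, that of Acsl6 -0.75 in place of -0.49 and that of Cpt1a -0.50 in place of -0.24. Without JA replicate 1 the same values were -0.50, -0.22 and -0.07, Hadha was at -0.10, Acsl3 at -0.15, Cpt2 at -0.16 and Hadhb at -0.18. Acaa2 turned positive without JA replicate 1 (0.14) and without PLM replicate 2 (0.07), and so did Cpt1a after centring without JA replicate 1 (0.01). The 3 comparisons share samples, since each group enters 2 of them, so their values are not independent of each other.

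The other genes of fatty acid handling were read from a list of 82, of which 78 were in the table and 67 passed the filter of a mean of 1 TPM in PLM versus SNI. As deposited, 32 of the 67 fell in PLM, where 13.6% of all loci were called lower, none rose and 35 did not pass limma's adjusted p of 0.05. The 32 became 7 without PLM replicate 2 or without SNI replicate 1, 8 without PLM replicate 1, 16 without PLM replicate 3 or SNI replicate 3, and 15 in a fit of all 9 samples, so the calls of single genes and roles hold for the fit with all PLM and SNI samples. Their median log2 fold change was -0.38 against -0.21 for all loci, and the PLM and SNI samples of 46 genes did not overlap, with PLM lower, against 41.9% of loci. After centring, 3 of the 67 were called, all lower, against 0.685% of loci, and 64 were not, with a median of -0.13. The 3 became 2 without PLM replicate 1 and 0 without any other single sample. On that scale 20 of the 67 did not overlap with PLM lower, against 9.73% of loci. A further 6 did not overlap with PLM higher, and as that share was not counted over all loci, nothing is read from the 6. Slc27a1 and Acot11 were among those called after centring. In SNI versus JA and in PLM versus JA, 0 of the 67 were called by limma as deposited, with 10 and 26 at an unadjusted p under 0.05, and 0 were called after centring, with 2 and 13. Over all loci the unadjusted counts in these comparisons were 1104 of 15557 and 1809 of 15349 as deposited, and 751 and 1532 after centring.

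Of 9 further activating enzymes and transporters tested, 4 fell as deposited. Slc27a1, which takes up and activates long chains at the cell membrane, had a mean of 41.9 ± 3.96 TPM under SNI and fell to 19.5 ± 0.531 TPM under PLM (SD, n = 3 samples each). Its log2 fold change was -1.06 ± 0.081 (SE, limma adjusted p = 0.00477), and -0.81 ± 0.070 after centring (adjusted p = 0.0263). Slc27a4, a related transporter, fell by 0.40 on the log2 scale as deposited (limma adjusted p = 0.0397) and was not called after centring (adjusted p = 0.35). Acsm5 had a log2 fold change of -1.25 ± 0.20 (SE, limma adjusted p = 0.0197) and fell as deposited. After centring it was at -0.999 ± 0.22 and was not called (adjusted p = 0.106), with no overlap on either scale. Acsf2 fell by 0.48 as deposited (limma adjusted p = 0.0172) and was at -0.23 after centring, not called (adjusted p = 0.22), also with no overlap on either scale. Acsl1, Acsl4 and Acsl5 were not called, and the synthetases Acsm3 and Acsbg2 were below the filter. Of 5 binding proteins, Dbi, which carries acyl-CoA in the cytosol, fell from 1035 ± 102 to 666 ± 49.3 TPM (log2 fold change -0.63 ± 0.091 SE, limma adjusted p = 0.0156), with an adjusted p of 0.171 after centring. Fabp7, the brain fatty acid binding protein, had a log2 fold change of -0.46 ± 0.17 (SE) and was not called (limma adjusted p = 0.104). Without SNI replicate 2 it was at -0.27.

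In the carnitine shuttle 3 of 5 genes fell as deposited, and 0 of the 5 were called after centring. Slc25a20, the carrier that exchanges acylcarnitine for carnitine across the inner membrane, was at 33.31, 33.48 and 33.41 TPM under SNI, whereas PLM had 23.94, 25.11 and 23.39 TPM, with no overlap. It had a log2 fold change of -0.45 ± 0.058 (SE, limma adjusted p = 0.0114), and -0.21 ± 0.065 after centring, where it was not called (adjusted p = 0.199). Crat, the acetyltransferase that buffers acetyl-CoA, fell by 0.51 (limma adjusted p = 0.0309) and was not called after centring (adjusted p = 0.238). Slc22a5, the carnitine importer, fell by 0.47 as deposited (limma adjusted p = 0.0424) and was not called after centring (adjusted p = 0.317).

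Of 15 further genes of mitochondrial beta-oxidation 9 fell as deposited, and 0 of the 15 were called after centring. Echs1, the short-chain enoyl-CoA hydratase, fell from 91.1 ± 2.29 to 57.9 ± 5.19 TPM (SD, n = 3 samples each), with a log2 fold change of -0.65 ± 0.078 (SE, limma adjusted p = 0.00940). After centring it was at -0.40 ± 0.061 and just above the threshold (adjusted p = 0.0545). Hsd17b10, a short-chain hydroxyacyl-CoA dehydrogenase, had a log2 fold change of -0.27 ± 0.070 as deposited (limma adjusted p = 0.0496) and of -0.03 ± 0.080 after centring (adjusted p = 0.893). Etfb, a subunit of the flavoprotein that takes electrons from the acyl-CoA dehydrogenases, was not called. Its log2 fold change was -0.14 as deposited and 0.10 after centring, so that its direction followed the scaling. Among the acyl-CoA dehydrogenases, the long-chain Acadl and the medium-chain Acadm fell as deposited (limma adjusted p = 0.0366 and 0.0418) and lost their calls after centring (adjusted p = 0.273 and 0.435), and the short-chain Acads was not called, at -0.15 on the log2 scale and 0.10 after centring.

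Of 12 peroxisomal genes, which shorten very long and branched chains, 7 fell as deposited and 0 were called after centring. Scp2, the peroxisomal thiolase and sterol carrier, fell from 120.4 ± 4.45 to 91.6 ± 2.64 TPM (log2 fold change -0.39 ± 0.056 SE, limma adjusted p = 0.0150). Phyh, which begins the alpha-oxidation of phytanic acid, fell from 86.3 ± 3.59 to 63.6 ± 3.99 TPM (log2 fold change -0.44 ± 0.068 SE, limma adjusted p = 0.0190). Both malonyl-CoA genes tested fell as deposited, although the enzymes act in opposite directions. Acaca, which makes malonyl-CoA, had a log2 fold change of -0.54 ± 0.10 (SE, limma adjusted p = 0.0275), and Mlycd, which degrades it, had -0.42 ± 0.087 (adjusted p = 0.0327). Neither was called after centring, at adjusted p-values of 0.167 and 0.404. Acacb, the other carboxylase, averaged 0.667 TPM and was not tested.

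Of 6 acyl-CoA thioesterases, which release free fatty acids from coenzyme A, 2 fell as deposited. Acot11 had 5.88, 5.05 and 4.38 TPM under SNI against 1.62, 1.16 and 1.22 TPM under PLM, with no overlap. Its log2 fold change of -1.39 ± 0.14 (SE, limma adjusted p = 0.00661) was the largest of the 67, and it was -1.14 ± 0.15 after centring (adjusted p = 0.0385). Acot7, the abundant brain thioesterase at 258.2 to 286.8 TPM in the group means of PLM and SNI, and Acot13 were not called, and their fold changes were below 0 as deposited and above 0 after centring. Of 4 ketone body genes 3 fell as deposited and 1 was called after centring. Oxct1, which begins the use of ketone bodies, fell by 0.77 (limma adjusted p = 0.00707) and by 0.52 after centring, where it was not called (adjusted p = 0.0522). Bdh1 had a log2 fold change of -0.38 ± 0.15 and was not called (limma adjusted p = 0.127), and it was at -0.25 without PLM replicate 1.

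Of 9 regulators tested, 1 fell as deposited and 0 were called after centring. That gene was Rxra, a partner receptor of the PPARs, with a log2 fold change of -0.35 ± 0.086 (SE, limma adjusted p = 0.0451) and an adjusted p of 0.548 after centring. Esrra, a receptor that acts on mitochondrial genes, had -0.29 ± 0.088 (limma adjusted p = 0.0714). Rxrb had -0.13 as deposited and 0.12 after centring, and was called on neither scale. Ppara, the receptor best known for inducing this pathway in liver, averaged 0.379 TPM over the 9 samples and was not tested, as were Pparg at 0.389 TPM and Prkaa2, an AMPK catalytic subunit, at 0.390 TPM. Ppard was the most abundant PPAR gene, at 11.5 TPM.

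**Figure D4:**
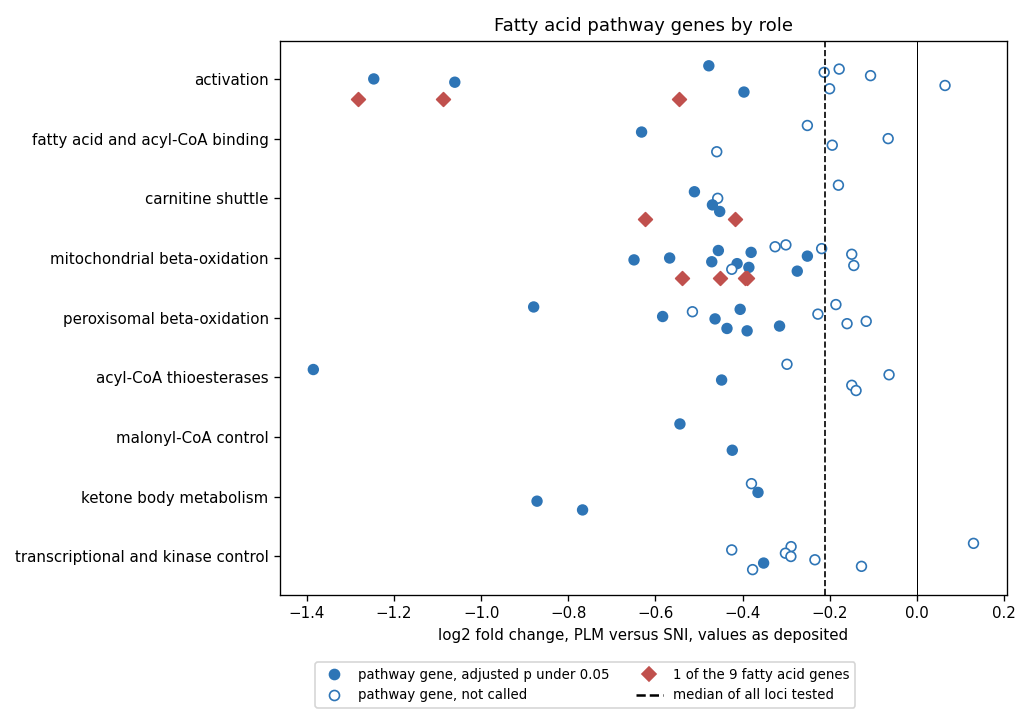
Log2 fold change in PLM versus SNI, values as deposited (horizontal axis), for the 67 further pathway genes by role (circles, filled where limma's adjusted p was under 0.05) and for the 9 fatty acid genes (diamonds), with the dashed line at the median of all loci, -0.21. Filled circles lie left of the dashed line in every role, Acot11 at -1.39 is the leftmost, and the 2 circles right of 0 are open.

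Astrocyte markers were lower in PLM than in SNI, as were the means of all 9 members, with Acsbg1 and Acsl6 differing most. All 12 markers were measured and none was at 0, with Gfap, Aqp4 and Slc1a3 among them. Their summed level was 2129 to 2579 TPM in PLM, 3931 to 4990 TPM in SNI and 3200 to 4832 TPM in JA. Most of that sum was S100b, with means of 1730 TPM in PLM, 2739 TPM in SNI and 2674 TPM in JA. Between PLM and SNI limma called 11 of the 12 lower in PLM as deposited, all but Sox9, against 13.6% of all loci. After centring it called 9, against 0.685% of loci. These 9 calls did not hold without SNI replicate 1, where 0 of 15393 loci were called lower after centring. The mean log2 level of the markers was subtracted from each gene in each sample, which cancels any scaling. The SD of Acsbg1 over the 9 samples, in centred log2 values, went from 0.61 to 0.15, with group means of 0.66 in JA, 0.70 in SNI and 0.74 in PLM. That of Acsl6 went from 0.44 to 0.19, with means of -0.57, -0.40 and -0.17. For the other 7 genes the SD was larger after the subtraction than before it, as with Hadha at 0.085 before and 0.48 after. A gene that varies much less than the markers gains SD by construction, even where it moves with them. Whether these 7 genes followed the markers is therefore not read from this SD. The part of the astrocyte markers in the differences of the members was not tested, and in bulk tissue fewer cells of a type and less RNA per cell cannot be told apart.

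The 8 neuron markers summed to 2845 to 3599 TPM in SNI, 2744 to 3017 TPM in PLM and 1772 to 3080 TPM in JA, and 0 of them were called between PLM and SNI by limma, with 2 at an unadjusted p under 0.05 as deposited. The 6 oligodendrocyte markers summed to 44923 to 55024 TPM over the 9 samples, and limma called 0 of them, with 2 at an unadjusted p under 0.05 as deposited. The 7 microglia markers summed to 287.1 to 370.9 TPM, and limma called 1 of them, Tmem119, lower in PLM as deposited (log2 fold change -0.43, adjusted p = 0.0378) and none after centring. After centring, all 6 oligodendrocyte markers and 6 of the 7 microglia markers had a fold change above 0. Of each list, 4 did not overlap with PLM higher, a share not counted over all loci. A single microglia marker (1) did not overlap with PLM lower, against 9.73% of loci. In the 2 lists 3 and 5 markers had an unadjusted p under 0.05. Over all 15474 loci 2621 did after centring, and 5739 as deposited. The part of these markers in the differences of the members was not tested. The 4 Schwann cell markers ranged widely within every group, from 60.5 to 6286 TPM in JA, from 416.4 to 3569 TPM in SNI and from 181.8 to 2631 TPM in PLM. Markers of tissues known for fatty acid oxidation or storage were low, with 3 adipocyte markers summing to 1.3 to 3.58 TPM and 3 skeletal muscle markers to 8.49 to 60.7 TPM. The highest muscle value was in SNI replicate 1, and its part in the values was not tested. Cpt1b, the muscle transferase, was at 0.580 TPM in SNI on average.

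**Figure D5:**
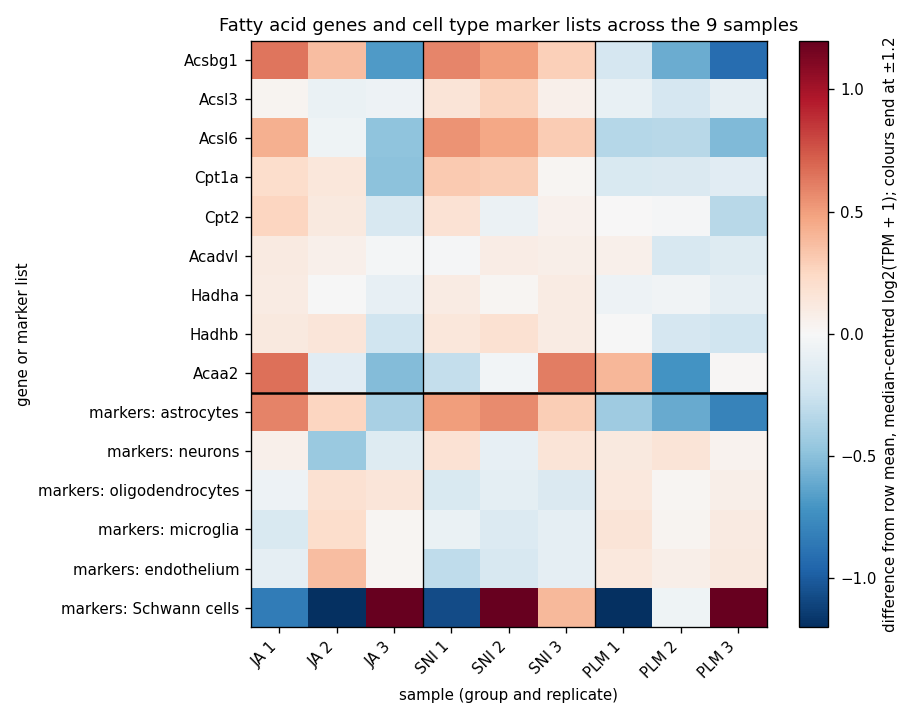
Median-centred log2(TPM + 1) of the 9 genes (rows above the thick line) and mean of 6 cell type marker lists (rows below it) in each sample, as the difference from the row mean, red for higher and blue for lower. The rows of Acsbg1 and Acsl6 and the row of astrocyte markers are blue in JA replicate 3 and in all PLM samples. Acsl3, Cpt1a, Hadha and Hadhb are also below their row means there, mostly by less, and Hadhb barely so in PLM replicate 1. The Schwann cell row varies within each group.

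The genes whose pattern over the 9 samples was nearest to each member were ranked by the root mean square difference of centred log2(TPM + 1), each gene less its own mean, among 12445 named genes. For Acsbg1 they were Pygm, the glycogen phosphorylase of muscle and astrocytes, at 0.068, Agt at 0.103 and Acot11 at 0.105, where Acsbg1 itself had an SD of 0.61. For Acsl6 they included Sparcl1 at 0.078 and the acetyl-CoA synthetase Acss1 at 0.092, against an SD of 0.44. The nearest gene to Acsl3 was Hibch at 0.057, to Cpt1a Ntrk3 at 0.052, and to Acadvl Pacsin2 at 0.042. Hadha was nearest to Pmm2 at 0.023 and Hadhb to Myrip at 0.052. For Acaa2 the nearest was Ifi44 at 0.270, against its own SD of 0.48. Among the 9 themselves the closest pair was Acadvl and Hadha at 0.087, and Acsbg1 was nearer to Acsl6, at 0.239, than to any other member. Genes that vary little have small differences by construction, so these distances are read against each SD and are descriptions of 9 samples.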

How the data were processed

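RNA sequencing of 9 spinal cord samples was read from 1 deposited table. The authors cleaned reads of adaptors and low quality, mapped them with HISAT2, estimated expression by StringTie, and used DESeq2 for their own gene calls, per the study's methods. The submitters' processing notes name fastp 0.19.5. They also name GRCh38.p13, a human build, whereas the identifiers are rat Ensembl ones, so the build of the table is unclear. The deposited values are TPM with 2 decimals. No unit is stated for the table, and TPM was inferred because each sample totals between 999999.57 and 1000000.42, and no depth is known. Samples were grouped by their labels, and each is a biological replicate there.

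Groups were compared in pairs on log2(TPM + 1) with limma 3.58.1 (R 4.3.3), with a variance trend, no covariate and loci of a mean of at least 1 TPM, adjusted over all loci. No count model was used. Centring subtracted each sample's median. The calling was checked on simulated data.

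The members and lists were chosen with earlier results of these data known. Pathway and marker lists were written from general knowledge. Named were the 9 genes, per role the 2 most abundant pathway genes and the one with the smallest p-value in PLM versus SNI, and the nearest genes to each member. The values of some genes named by this rule are not reported here. Other names in a role were added after their values were seen. Promoters are RefSeq sequences of GRCr8, matched by symbol (8 of 9). Alternatives were another pseudocount and filters, centring, TPM without the 13 mitochondrial protein genes, a fit of all 9 samples, the replicate block and leaving out each sample. Centring together with another choice was added after the data had been seen.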

Additional observations from a re-analysis of the deposited data

How the results depend on the processing

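In PLM versus SNI the pathway genes called were 32 as deposited and the members called were 7. Over all loci 2110 of 15474 were called lower. The counts of pathway genes, members and all loci called lower were 15, 2 and 463 of 15503 in a fit of all 9 samples, 5, 3 and 267 of 16055 when TPM was rescaled without the mitochondrial protein genes, and 3, 1 and 106 of 15474 after centring. By the rule of an unadjusted p and a log2 fold change past 1 they were 3, 2 and 220, and 1, 1 and 102 after centring. Leaving out each sample in turn gave 7 to 23 pathway genes, 2 to 6 members and 264 to 1456 loci, and 0 to 2, 0 to 1 and 0 to 72 after centring. The pathway count was 7 without PLM replicate 2 or without SNI replicate 1, 8 without PLM replicate 1, and 16 without PLM replicate 3 or SNI replicate 3, where fewer samples were fitted. The member count was 2 without SNI replicate 1 and 3 without PLM replicate 1 or PLM replicate 2. No filter, a filter of 1 TPM in every sample and a pseudocount of 0.1 kept both counts within 1.5 times. In SNI versus JA and PLM versus JA the counts remained 0, except that the rule with the fold gave 1 pathway gene in PLM versus JA.

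Replicate numbers did not pair the samples, with correlations of same-numbered samples between -0.05 and 0.13, and not every sample correlated best with its own number. With the number as a replicate block, 3 pathway genes, 2 members and 151 of 15474 loci were called lower in PLM versus SNI, and 0, 0 and 0 after centring.

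Of the 67 pathway genes, 19 went from a fold change below 0 to one above 0 on centring in PLM versus SNI, and 0 of these had been called. Acot13, Acot7, Etfb and Rxrb were among them. Acot13 was 0.18 after centring and 0.081 without the mitochondrial genes, and leaving out each sample gave -0.17 to 0.039, the latter without PLM replicate 3. Acot7 was 0.10 after centring. Etfb was 0.10 after centring and 0.00185 without the mitochondrial genes, and Rxrb was 0.12 and 0.015. The cause was not tested. Read depth is unknown, so low genes such as Ppara could not be judged.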
